A study of Mus musculus with 6 samples.

Results

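Nuclear genes for subunits of respiratory complexes II to V were followed in haematopoietic stem cells of mice that lack the PAR bZIP transcription factor gene Hlf and of their wild-type littermates. The genes were chosen by symbol alone: Sdha to Sdhd for complex II, symbols that begin with Uqcr plus Cyc1 for complex III, Cox5 to Cox8 genes for complex IV, and symbols that begin with Atp5 for complex V. This gave 46 of 23574 features, 4 in complex II, 9 in complex III, 16 in complex IV and 17 in complex V. Each genotype had 3 RNA-seq libraries. Each library came from 3000 sorted C57BL/6 cells that lacked lineage markers, CD34 and Flt3 and carried Sca-1 and c-Kit. The 2 groups were labelled wild type and HLF KO. The labels give no agent, age or sex, and the sources used here do not give the deleted part of Hlf. Whether the libraries stem from separate animals is also not stated, and the p-values therefore reflect library-to-library spread, some of which may be technical.

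The respiratory chain of the inner mitochondrial membrane passes electrons to oxygen and pumps protons, and ATP synthase uses the resulting gradient to make ATP. Complex II (succinate dehydrogenase) feeds electrons from the citric acid cycle to ubiquinone, complex III (cytochrome bc1) passes them to cytochrome c, complex IV (cytochrome c oxidase) reduces oxygen, and complex V is ATP synthase. Every subunit of complex II is encoded in the nucleus, while the other complexes also hold subunits encoded by mitochondrial DNA, which were not analysed here. Quiescent haematopoietic stem cells are known to rely largely on glycolysis and to draw more on mitochondrial respiration when they enter the cell cycle and differentiate.

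The libraries held 8346335 to 11998296 counts, with the 3 knockout libraries the deepest. Counts of Hlf were 10768, 15982 and 10055 in wild-type libraries 1 to 3, against 309, 399 and 431 in the knockouts. It was the 1 gene of 10204 tested that passed an adjusted p of 0.05 in edgeR's quasi-likelihood test (log2 fold change -5.33, SE 0.26, adjusted p = 1.9e-06). Pearson's r of log2 CPM (counts scaled to a common depth by library size and TMM factor) across genes was 0.749 to 0.805 between wild-type libraries and 0.869 to 0.883 between knockout libraries. The summed level of 9 stem cell markers was 1046 to 1100 CPM in wild type against 830.4 to 992.6 CPM in knockout. Some markers of other cells also differed with genotype or in 1 library. The 6 megakaryocyte markers summed to 311.1 to 546.1 CPM in wild type against 713.8 to 918.0 CPM in knockout. Their log2 fold changes were positive for 5 and negative for 1, Ppbp. In 3 of them every knockout library was higher, an order seen for 7.52% of all tested genes. The largest part of the knockout sum was Pf4, at 353.1, 506.5 and 450.9 CPM against 185.0, 116.6 and 96.4 CPM in wild type. The 6 listed T and NK cell markers summed to 102.9 to 228.9 CPM in wild type and 286.9 to 489.8 CPM in knockout. In the knockouts most of the T and NK sum was Nkg7, at 254.0, 297.8 and 462.7 CPM against 71.4, 156.3 and 97.3 CPM in wild type. Cd3e had 83.5, 47.4 and 2.77 CPM in wild type against 20.2, 19.2 and 21.2 CPM in knockout. Of the 5 tested T and NK markers, 3 had positive and 2 negative log2 fold changes. The 8 B lineage markers summed to 83.6 to 146.2 CPM in wild type against 34.0 to 53.4 CPM in knockout. The sums of the 5 listed macrophage markers overlapped (61.8 to 79.5 and 16.6 to 62.4 CPM). Of the 4 tested macrophage markers, 2 had positive and 2 negative log2 fold changes. Erythroid markers overlapped (364.2 to 574.8 and 399.3 to 500.4 CPM, with Hba-a1 and Hbb-b1 at 0). The 10 granulocyte and monocyte markers, with S100a9 at 0, summed to 2700 CPM in wild-type library 3 and to at most 252.5 CPM in the other libraries. All 8 tested ones had negative log2 fold changes, with a median of -3.46. Only 1 of them, Prtn3, lay lower in every knockout library, an order seen for 6.85% of all tested genes. Prtn3 had 122.1, 70.7 and 367.0 CPM in wild type against 2.29, 11.3 and 3.03 CPM in knockout. The part of these cells in the members' results was not tested. In bulk RNA, fewer cells of a type and less RNA per cell cannot be told apart.

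Of the 46 genes, 37 passed the filter on low counts and were tested. None of the 37 passed an adjusted p of 0.05 in edgeR, where 0.0098% of all tested genes did, and the smallest adjusted p was 0.67. DESeq2 called 0 of them (smallest adjusted p = 0.42, 1.09% of all genes called) and limma-voom called 0. At an unadjusted p under 0.05 edgeR had 2 of 37 members, Sdha and Uqcrb, against 7.27% of all genes. Both were higher in knockout, as were 2.63% of all genes, and 0 members were lower, against 4.65%. The higher members numbered 0 without wild-type library 1, wild-type library 2 or knockout library 1, and 4 without wild-type library 3. Log2 fold changes of knockout over wild type were positive for 28 of the 37 members, where 47.2% of all tested genes were positive. Their median was 0.23, from -0.37 for Atp5l to 1.14 for Uqcrb, and that of all tested genes was -0.05. Of 5615 tested genes with a mean of at least 30 CPM, a level all 37 members reached, 48.1% were positive and the median was -0.02. Every knockout library lay above every wild-type one for 6 of the 37 (16.2%), Sdha, Sdhc, Uqcrfs1, Uqcrh, Atp5b and Atp5j, against 7.52% of all tested genes. The opposite order was seen for 0 members, against 6.85%. A 2-sided exact permutation test of 3 libraries against 3 cannot give a p below 0.1, so the lack of overlap is a description.

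**Figure D1:**
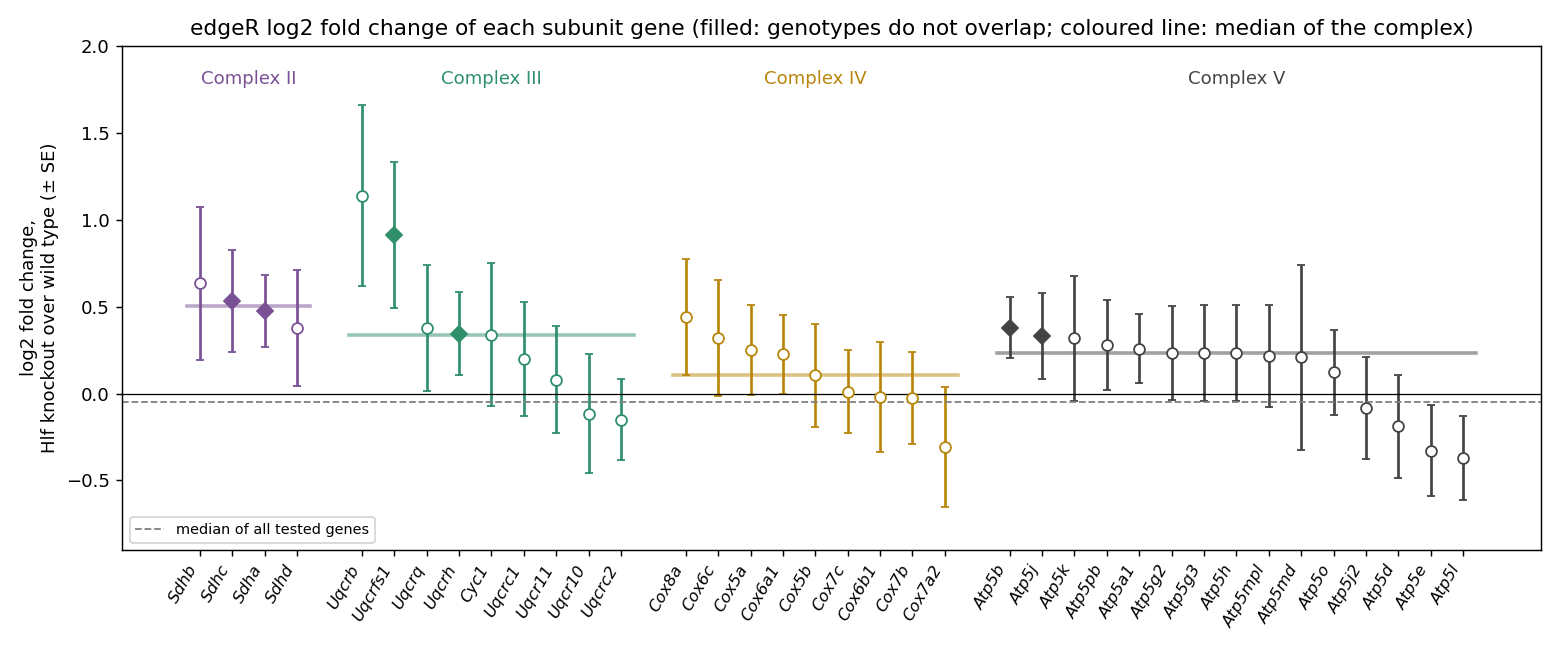
Log2 fold change (knockout over wild type, y axis) with its standard error for each of the 37 tested subunit genes, ordered within complexes II to V. Filled diamonds mark the 6 genes whose genotypes did not overlap, coloured lines the medians of the complexes (0.50, 0.34, 0.10 and 0.23), and the dashed line the median of all tested genes (-0.05).

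All 4 complex II genes had positive log2 fold changes, with a median of 0.50. In complex III 7 of 9 were positive with a median of 0.34, in complex IV 6 of 9 tested genes with a median of 0.10, and in complex V 11 of 15 with a median of 0.23. The median of complex III rested on wild-type library 1 and was 0.0063 without it. Over all members, the median was 0.18 without that library and 0.12 without knockout library 3, each with 25 of 37 positive. Without knockout library 3 the medians of complexes II to V were 0.47, 0.37, 0.056 and 0.090. Leaving out 1 library took the median of complex IV from 0.056 to 0.23 (without wild-type library 3), with 0.18 without wild-type library 2 and 0.17 without knockout library 1, and it was 0.034 without a filter on low counts. Differences between complexes were not tested.

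Complex II genes summed to 596.4, 743.9 and 617.2 CPM in wild-type libraries 1 to 3 and to 858.8, 930.7 and 928.4 CPM in the knockout libraries. The sums did not overlap between genotypes. Outside the members, the sums of complex I genes (2292 to 2596 CPM in wild type, 2621 to 2851 CPM in the knockouts) and of citric acid cycle genes (2103 to 2586 and 2782 to 3056 CPM) did not overlap either. Complex III summed to 1069, 1560 and 1341 CPM in wild type against 1433, 1483 and 1597 CPM in knockout. The wild-type sums of complex III spread more widely than the knockout ones, with library 1 lowest. Complex IV summed to 1729, 1795 and 2067 CPM in wild type against 1854, 2031 and 2128 CPM in knockout, and the ranges overlapped. Complex V summed to 6021, 7004 and 6303 CPM in wild type against 6799, 6673 and 8878 CPM in knockout, where library 3 stood above the rest. All 46 genes together took 0.887%, 1.08% and 1.06% of the raw counts in wild type against 1.14%, 1.16% and 1.30% in knockout, an order without overlap. On the scaled values the sums overlapped, at 9415 to 11103 CPM in wild type against 10945 to 13532 CPM in knockout.

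**Figure D2:**
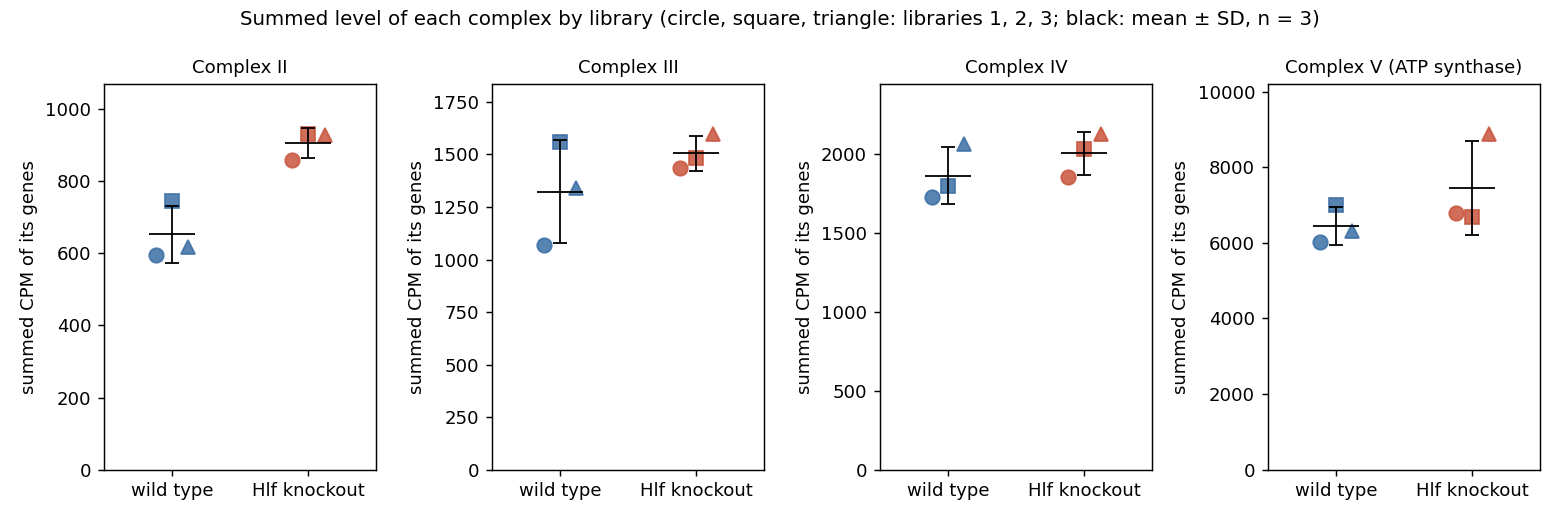
Summed CPM (y axis, from 0) of the genes of complexes II, III, IV and V in each wild-type and knockout library, with the mean and SD of 3 libraries in black. Complex II spans 596.4 to 743.9 CPM in wild type against 858.8 to 930.7 CPM in knockout, and the other 3 complexes overlap.

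The 250 bases before the annotated start are given here for 5 of the 6 genes whose genotypes did not overlap, and for Cox7b, since it held letters that resemble an HLF site (RefSeq, GRCm38.p6). Of the 37 tested members, 29 matched the promoter table. Atp5a1, Atp5mpl, Cox6c, Cyc1, Sdhc, Uqcrb, Uqcrc2 and Uqcrq did not. Sequences run 5′ to 3′ on the gene's strand. Capitals mark letters, searched on both strands, that resemble sites of NRF1 (GCGCA, any base, then GCGC), a known regulator of respiratory genes, ETS factors such as GABP (CCGGAAG), CREB (TGACGTCA), YY1 (ANATGGCG) and HLF with its relatives (TTATGTAA or TTACGTAA).
Sdha, chr13:74350241-74350490, minus strand: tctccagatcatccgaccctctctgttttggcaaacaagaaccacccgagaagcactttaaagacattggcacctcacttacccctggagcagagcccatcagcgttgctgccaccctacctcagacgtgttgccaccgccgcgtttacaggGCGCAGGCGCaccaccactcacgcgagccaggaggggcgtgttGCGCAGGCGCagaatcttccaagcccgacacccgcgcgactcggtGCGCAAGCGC
Uqcrfs1, chr13:30545317-30545566, minus strand: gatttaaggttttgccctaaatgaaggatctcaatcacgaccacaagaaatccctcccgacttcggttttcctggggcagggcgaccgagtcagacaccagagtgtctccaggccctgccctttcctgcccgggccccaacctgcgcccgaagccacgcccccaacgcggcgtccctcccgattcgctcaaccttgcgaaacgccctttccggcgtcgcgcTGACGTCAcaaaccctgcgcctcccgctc
Uqcrh, chr4:116075071-116075320, minus strand: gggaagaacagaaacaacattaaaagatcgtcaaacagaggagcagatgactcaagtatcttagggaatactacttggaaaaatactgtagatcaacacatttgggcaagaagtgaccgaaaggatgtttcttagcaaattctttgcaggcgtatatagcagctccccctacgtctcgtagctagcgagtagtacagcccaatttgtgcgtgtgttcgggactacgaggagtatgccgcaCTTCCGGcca
Atp5b, chr10:128083057-128083306, plus strand: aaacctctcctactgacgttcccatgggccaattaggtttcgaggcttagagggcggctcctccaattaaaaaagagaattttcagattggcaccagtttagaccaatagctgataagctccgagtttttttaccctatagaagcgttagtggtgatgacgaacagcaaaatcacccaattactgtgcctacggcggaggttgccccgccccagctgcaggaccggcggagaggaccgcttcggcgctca
Atp5j, chr16:84834977-84835226, minus strand: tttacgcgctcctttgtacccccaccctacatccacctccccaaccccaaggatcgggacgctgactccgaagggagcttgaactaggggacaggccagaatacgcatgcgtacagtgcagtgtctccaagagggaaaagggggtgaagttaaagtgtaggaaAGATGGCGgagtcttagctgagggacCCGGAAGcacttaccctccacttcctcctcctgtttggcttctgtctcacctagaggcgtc
Cox7b, chrX:106015450-106015699, plus strand: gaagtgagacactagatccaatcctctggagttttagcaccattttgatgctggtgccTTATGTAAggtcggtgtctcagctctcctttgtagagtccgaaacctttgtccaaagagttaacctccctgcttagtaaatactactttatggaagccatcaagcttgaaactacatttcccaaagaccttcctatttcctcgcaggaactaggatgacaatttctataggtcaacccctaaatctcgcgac
Sdha held the NRF1 letters 3 times, at 98, 55 and 10 bases before its start. Uqcrfs1 held the CREB letters 29 bases before its start, Uqcrh the ETS letters at 10 bases, and Atp5j, at 1 of its 2 annotated starts, the YY1 letters at 87 and the ETS letters at 61 bases. Atp5b held none of these letters in this window.

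Over the 31 promoter windows of the 29 members with an entry, 6 (19.4%) held the NRF1 letters, against 8.39% of the windows of all tested genes and 3.74% of all 32851 windows. The genes were Sdha, Sdhd, Cox6a1, Atp5g2, Atp5h and Atp5k. The ETS letters were in 9 windows (29.0%), against 14.2% and 6.91%. The CREB letters were in 1 window (3.23%, against 2.65% and 1.55%) and the YY1 letters in 2 (6.45%, against 3.48% and 2.07%). The HLF letters TTATGTAA were in 1 member window, that of Cox7b, 192 bases before its start (3.23%, against 0.479% and 0.819%). TTACGTAA was in 0 member windows, against 0.167% and 0.113%. These matches describe letters in the window and are neither sites nor causes.

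All 4 complex II genes had a higher mean in knockout. In 2 of them every knockout library was higher, an order seen for 7.52% of all tested genes. Sdha encodes the flavoprotein that oxidises succinate. It stood at 277.5, 289.9 and 339.3 CPM in wild-type libraries 1 to 3 against 391.9, 452.8 and 415.7 CPM in knockout libraries 1 to 3. Every knockout library was higher, by a fold of 1.39 (95% interval 1.02 to 1.90, log2 fold change 0.48, SE 0.21, edgeR unadjusted p = 0.041, adjusted p = 0.67). Its log2 fold change stayed between 0.43 and 0.57 when any 1 library was left out. Among the promoters printed above, that of Sdha is the one with 3 NRF1-like stretches, and a link to its level was not tested.

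Sdhc and Sdhd encode the membrane anchors that bind ubiquinone. Sdhc had 101.5, 118.4 and 94.5 CPM in wild type against 164.2, 119.8 and 171.2 CPM in knockout, where library 2 was only just above the highest wild-type value. Its log2 fold change stood at 0.53 (SE 0.29, edgeR adjusted p = 0.71). Sdhd had 190.6, 267.3 and 102.7 CPM in wild type against 198.4, 277.9 and 252.6 CPM in knockout, and its genotypes overlapped. The log2 fold change of Sdhd was 0.38 (SE 0.33), 0.088 without wild-type library 3 and 0.73 without wild-type library 2. Sdhb, the iron-sulphur subunit, had 26.8, 68.4 and 80.7 CPM in wild type against 104.3, 80.2 and 88.9 CPM in knockout. Wild-type library 1 was far below the other libraries. The log2 fold change of Sdhb was 0.64 (SE 0.44, edgeR adjusted p = 0.77), and 0.30 without that library. Per kilobase of transcript, the wild-type levels were 151.8 ± 66.9 CPM for Sdhd, 104.2 ± 11.3 for Sdha, 51.4 ± 24.7 for Sdhb and 33.0 ± 3.86 for Sdhc (SD, n = 3).

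**Figure D3:**
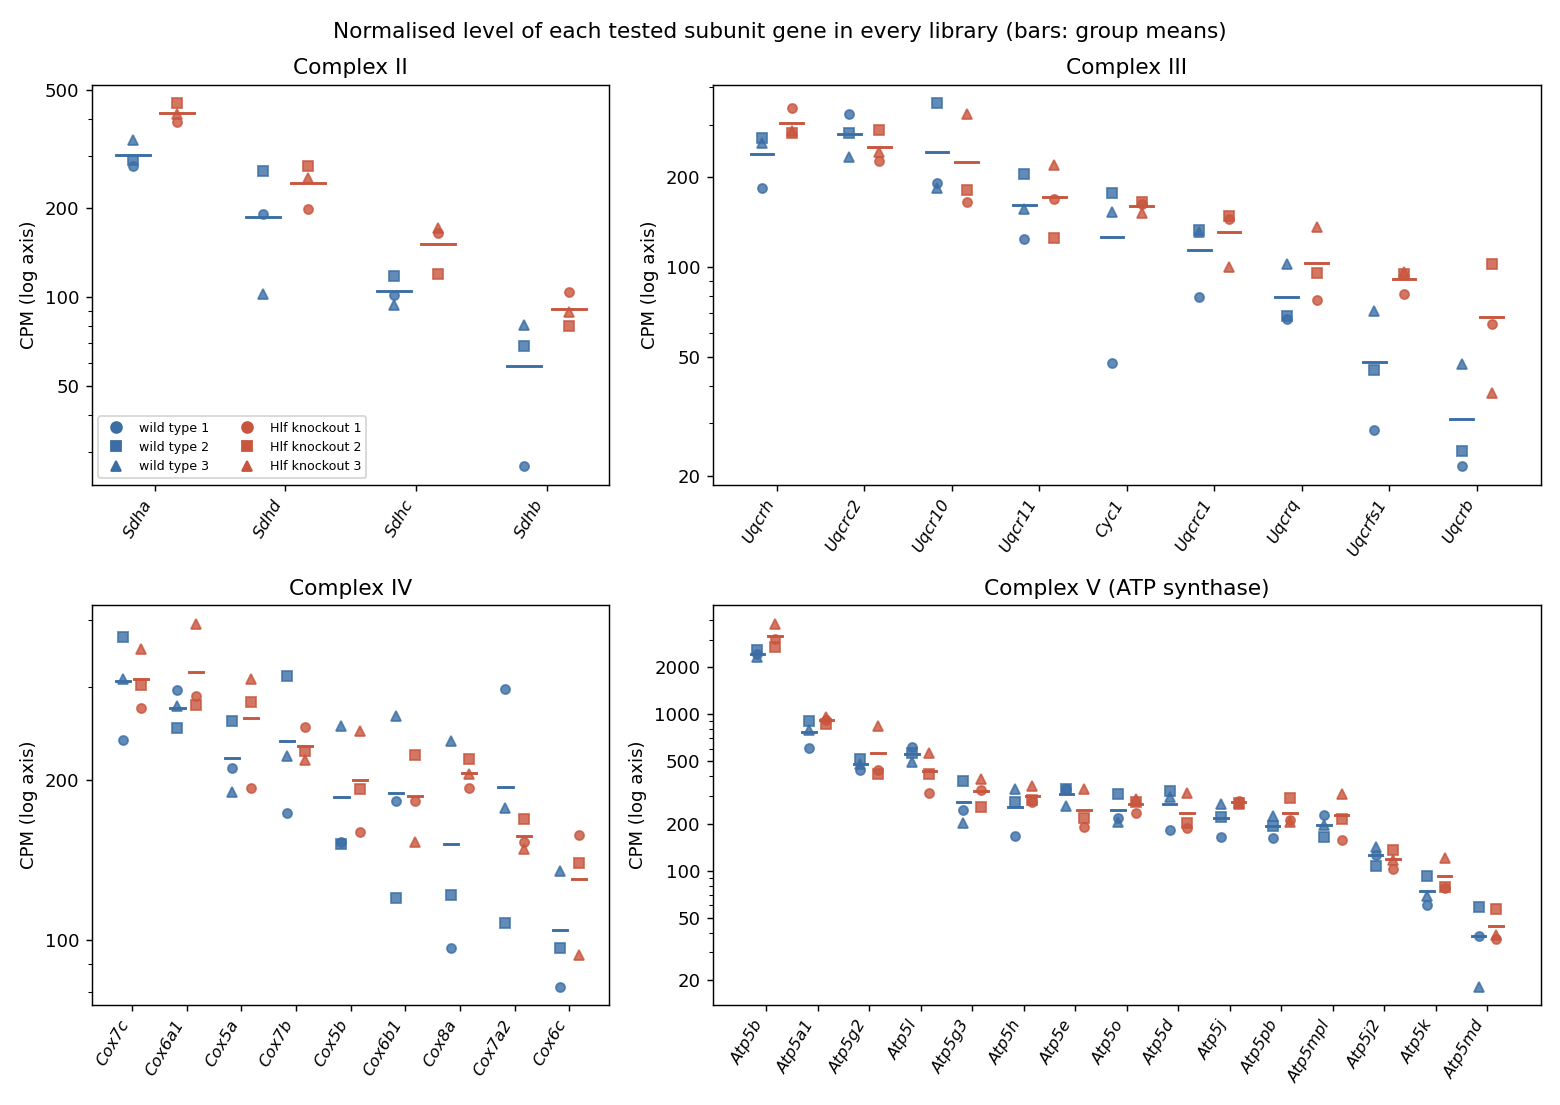
CPM (log y axis) of each of the 37 tested subunit genes in the 3 wild-type (blue) and 3 knockout (red) libraries, by complex and in order of mean level, with bars at the group means. Sdha separates the genotypes (277.5 to 339.3 against 391.9 to 452.8 CPM), and Atp5b stands above all other members in every library.

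In complex III the largest differences were in Uqcrb and Uqcrfs1. Uqcrfs1 encodes the Rieske iron-sulphur protein, which takes electrons from ubiquinol. It had 28.4, 45.3 and 71.0 CPM in wild type against 81.3, 95.0 and 96.4 CPM in knockout. The knockout libraries lay close together and above all wild-type ones, with a fold of 1.88 (95% interval 0.998 to 3.56, log2 fold change 0.91, SE 0.42, edgeR unadjusted p = 0.051, adjusted p = 0.68). Leaving out 1 library gave log2 fold changes from 0.66 to 1.30. Cyc1 encodes cytochrome c1, the next carrier in the complex. It had 177.1 and 153.6 CPM in wild-type libraries 2 and 3 and 151.9 to 165.0 CPM in knockout, and 47.8 CPM in wild-type library 1 alone. Its log2 fold change of 0.34 (SE 0.41) came with a single low library and was -0.035 without it.

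The core proteins Uqcrc1 and Uqcrc2 overlapped between genotypes. Uqcrc1 had 114.3 ± 30.4 CPM in wild type against 131.1 ± 27.0 CPM in knockout, and Uqcrc2 had 280.2 ± 45.6 and 252.5 ± 31.3 CPM (SD, n = 3), with log2 fold changes of 0.20 (SE 0.33) and -0.15 (SE 0.23). Uqcrb, a small subunit near the ubiquinone site, had 21.5, 24.2 and 47.2 CPM in wild type against 64.6, 102.2 and 37.9 CPM in knockout. Knockout library 3 lay within the wild-type range. The fold was 2.20 (95% interval 1.00 to 4.84, log2 fold change 1.14, SE 0.52, edgeR unadjusted p = 0.0495, adjusted p = 0.68), and the log2 fold change was 0.74 without knockout library 2. Uqcrh, the hinge protein of cytochrome c1, had 184.6, 270.6 and 261.0 CPM in wild type against 341.5, 282.0 and 285.7 CPM in knockout. The genotypes did not overlap, with a log2 fold change of 0.34 (SE 0.24, edgeR adjusted p = 0.77) that was 0.20 without wild-type library 1. The other small subunits, Uqcrq, Uqcr11 and Uqcr10, overlapped, with log2 fold changes of 0.38, 0.08 and -0.12 (SE 0.31 to 0.36).

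With all libraries the median of complex IV was the lowest of the 4 complexes. It was above that of complex III without wild-type library 1 (0.15 and 0.0063) and above that of complex V without wild-type library 3 (0.23 and 0.22). Its 9 tested genes all overlapped, and their log2 fold changes ran from -0.31 for Cox7a2 to 0.44 for Cox8a, with standard errors of 0.23 to 0.35. These genes encode the small nuclear subunits around the catalytic core, which is encoded by mitochondrial DNA. Cox8a had 96.7, 121.4 and 237.5 CPM in wild type against 193.4, 219.3 and 205.6 CPM in knockout. The knockout values lay together, while wild-type library 3 was the highest of all. The log2 fold change of Cox8a was 0.44 (SE 0.34, edgeR adjusted p = 0.79, 0.92 without that library and 0.21 without wild-type library 1). Cox7a2 had 296.8, 107.7 and 177.3 CPM in wild type against 148.7 to 169.0 CPM in knockout. Here wild-type library 1 was the highest of the 6, and without it the log2 fold change of Cox7a2 was 0.15.

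Cox6a1 and Cox5a had log2 fold changes of 0.23 (SE 0.23) and 0.25 (SE 0.26), and 0.06 and 0.12 without knockout library 3. Cox6a1 had 295.3, 250.6 and 275.6 CPM in wild type against 288.5, 277.6 and 394.3 CPM in knockout. Cox5a had 211.3, 258.0 and 189.9 CPM in wild type against 193.8, 280.2 and 310.5 CPM in knockout. In both, knockout library 3 was the highest. Without knockout library 1 the log2 fold change of Cox5a was 0.44. Cox7c, which had the highest mean over the 6 libraries among the 9 tested complex IV members, had 237.9, 372.2 and 310.7 CPM in wild type against 273.5, 301.9 and 353.1 CPM in knockout. Its fold was 1.01 with a 95% interval of 0.702 to 1.45, and its log2 fold change of 0.01 became -0.0054 with RLE scaling. Cox6c, Cox5b, Cox6b1 and Cox7b, the member with an HLF-like stretch, had log2 fold changes of 0.32, 0.10, -0.02 and -0.03 (SE 0.27 to 0.33). The ubiquitous Cox4i1, a complex IV subunit that the symbol rule leaves out, had 371.8 to 508.4 CPM in wild type against 458.8 to 589.6 CPM in knockout (log2 fold change 0.33, SE 0.21).

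The tissue-restricted forms of complex IV subunits were at or near 0. The muscle forms Cox6a2, Cox7a1 and Cox8b had 7, 2 and 23 counts over all 6 libraries, and 0 of these counts were in knockout. The testis forms Cox7b2 and Cox8c had 0 counts in every library, where 3 counts would be 0.250 to 0.359 CPM of the raw totals. Cox6b2, the testis form of subunit VIb, had 41 counts, 36 of them in knockout library 3, but it is 1 of the 4 members listed with 2 transcripts. The others were Atp5c1 (38 counts), Atp5g1 (31) and Cox7a2l (0). Atp5c1 encodes the only γ subunit of ATP synthase, which every cell with a working enzyme needs. The median total over the 6 libraries was 79 counts for features with 1 listed transcript and 3 for those with 2. Low counts of these 4 genes are therefore not read as low expression.

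In complex V, Atp5b stood apart by level. It encodes the catalytic β subunit and had 2431, 2566 and 2330 CPM in wild type against 3041, 2694 and 3797 CPM in knockout. It supplied 22.6% to 28.1% of all counts of the 46 genes. The genotypes did not overlap, with a fold of 1.30 (95% interval 0.995 to 1.70, log2 fold change 0.38, SE 0.18, edgeR unadjusted p = 0.054, adjusted p = 0.68), and the log2 fold change was 0.24 without knockout library 3. Without Atp5b the other members summed to 6984 to 8537 CPM in wild type against 7905 to 9734 CPM in knockout. Atp5a1, the α subunit of the same head, had 610.4, 899.4 and 787.6 CPM in wild type against 925.1, 869.8 and 953.6 CPM in knockout. Its log2 fold change was 0.26 (SE 0.20).

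The small head subunits had negative log2 fold changes. Atp5e, the ε subunit, had 332.3, 333.9 and 258.8 CPM in wild type against 190.5, 215.9 and 330.4 CPM in knockout. Its log2 fold change was -0.33 (SE 0.26). Atp5d, the δ subunit, had 183.0 to 324.2 and 187.9 to 315.2 CPM, with a log2 fold change of -0.19 (SE 0.29). In both, knockout library 3 was well above knockout libraries 1 and 2. Per kilobase of transcript the wild-type levels of the head genes were 1275 ± 61.9 CPM for Atp5b, 732.4 ± 101.8 for Atp5e, 309.9 ± 59.0 for Atp5a1 and 287.2 ± 80.1 for Atp5d (SD, n = 3).

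All 4 genes of the peripheral stalk, which holds the head still, had positive log2 fold changes. Atp5j (coupling factor 6) had 164.4, 220.3 and 266.3 CPM in wild type against 280.4, 271.4 and 267.6 CPM in knockout. The knockout libraries were nearly equal and just above wild-type library 3. Its log2 fold change stood at 0.33 (SE 0.25, edgeR adjusted p = 0.78), 0.18 without wild-type library 1 and 0.51 without wild-type library 3. Atp5pb, Atp5h and Atp5o (the oligomycin-sensitivity subunit) overlapped, with log2 fold changes of 0.28, 0.23 and 0.12 (SE 0.25 to 0.27). These were 0.11 for Atp5pb without knockout library 2, 0.014 for Atp5h without wild-type library 1 and 0.0135 for Atp5o without wild-type library 3. Atp5g2 and Atp5g3, 2 of the 3 genes for the proton-carrying c ring, both stood at 0.23 (SE 0.27 and 0.28). Atp5g2 had 440.2 to 516.1 CPM in wild type. It had 439.3 and 414.4 CPM in knockout libraries 1 and 2 and 837.4 CPM in knockout library 3, without which its log2 fold change was -0.16.

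Of the 5 small membrane subunits, Atp5l (subunit g, which helps synthase dimers form) had the lowest log2 fold change of all members. It had 614.4, 563.6 and 497.3 CPM in wild type against 315.4, 413.4 and 567.6 CPM in knockout. Knockout library 3 lay within the wild-type range and the other 2 knockout libraries below it. The fold was 0.774 (95% interval 0.538 to 1.11, log2 fold change -0.37, SE 0.24, edgeR adjusted p = 0.74). The log2 fold change was -0.61 without knockout library 3 and -0.18 without knockout library 1. Atp5k, Atp5mpl, Atp5md and Atp5j2 overlapped, with log2 fold changes of 0.32, 0.22, 0.21 and -0.08 (SE 0.29 to 0.53). Pseudogenes named after Atp5l, Atp5k, Atp5pb, Atp5c1, Cox5b, Cox7c and Uqcrh are in the RefSeq table. The values of these 7 genes are uncertain, because the treatment of shared reads is unknown. Pseudogenes under other symbols were not searched for, so the other members may share this limit.

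**Figure D4:**
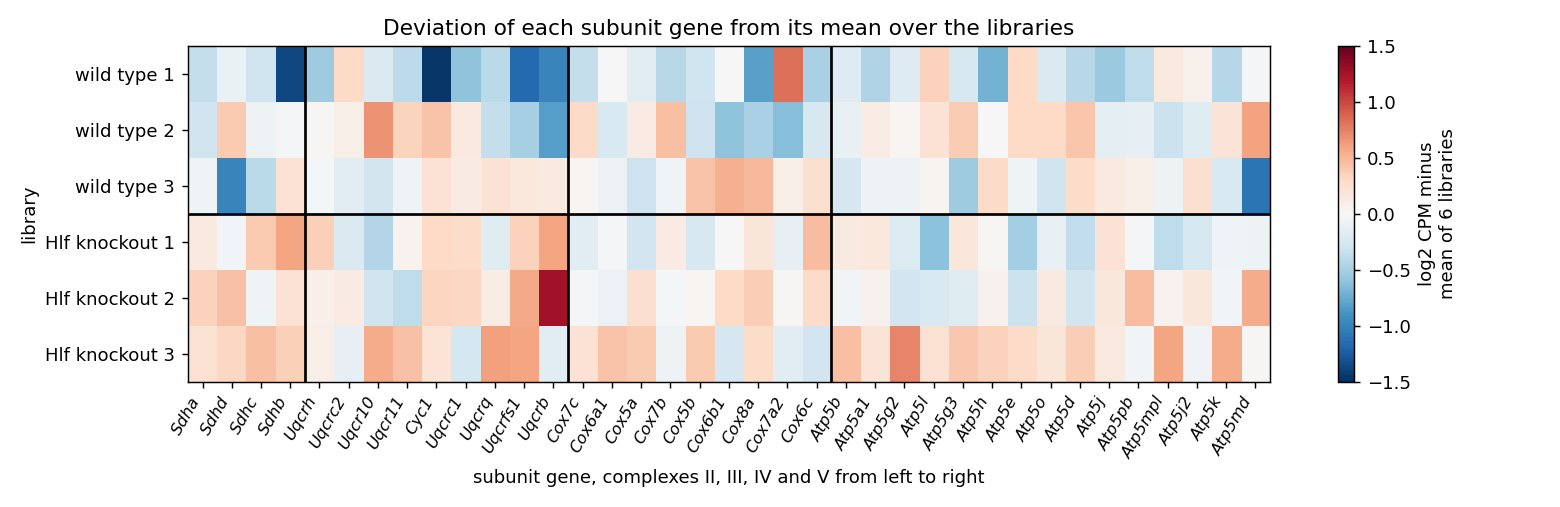
Deviation of each tested subunit gene (columns, by complex) from its mean log2 CPM over the 6 libraries (rows), where red is higher and blue lower, with no value beyond the colour limit of 1.5. Wild-type library 1 is the lowest library for 19 of 37 genes and knockout library 3 the highest for 13.

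Single libraries carried much of the spread. Wild-type library 1 was the lowest of the 6 for 19 of the 37 members (51.4%), against 29.5% of all tested genes and 25.4% of those with a mean of at least 30 CPM. Knockout library 3 was the highest for 13 members and the lowest for 0, but the share of all tested genes highest in it was not computed. Over the members, the median deviation of log2 CPM from the mean of the 6 libraries was -0.36 in wild-type library 1, where that of all tested genes was -0.03. The median deviation of the members was 0.27 in knockout library 3, where that of all tested genes was 0.05. It was between -0.03 and 0.08 in the other 4 libraries. Wild-type library 1 also had the fewest features with a count, 10796, against 11341 to 12331 in the others. It was also the shallowest of the 6 libraries, at 8346335 counts. The median coefficient of variation of the members was 25.2% in wild type and 18.9% in knockout, against 34.8% and 22.0% for tested genes with a mean of at least 30 CPM.

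The members differ in transcript length, taken from matched GENCODE transcripts. The 13 with at least 1000 nucleotides had a median log2 fold change of 0.38 with 11 positive, and the 24 shorter ones 0.21 with 17 positive. Spearman's rho of log2 fold change with length was 0.32 across the 37 members, which share these libraries. Among the tested genes with a mean of at least 30 CPM the order was the opposite, with medians of -0.03 for long and 0.10 for short transcripts and a rho of -0.14 across 5570 genes.

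Other genes of mitochondrial respiration are given by list. In each list 0 genes passed an adjusted p of 0.05 in edgeR or DESeq2, and at an unadjusted p under 0.05 in edgeR only 1 complex I gene and 2 citric acid cycle genes were called, all higher in knockout, where 2.63% of all tested genes were. Complex I genes were positive in 23 of 30 tested, with a median log2 fold change of 0.16 and 4 genes without overlap, all higher in knockout, an order seen for 7.52% of all tested genes. Its 2 genes of smallest p were Ndufb2 (1.04, SE 0.44) and Ndufa9 (0.68, SE 0.32). Citric acid cycle genes were positive in 13 of 16, with a median of 0.19. Fumarase, the gene Fh1, acts on the product of succinate dehydrogenase. It had 48.6, 51.9 and 49.9 CPM in wild type against 118.2, 143.4 and 83.2 CPM in knockout, and every knockout library was higher. The log2 fold change of Fh1 was 1.20 (SE 0.36, edgeR unadjusted p = 0.0058, adjusted p = 0.47), and that of Idh3g, a subunit of isocitrate dehydrogenase, was 0.70 (SE 0.26, adjusted p = 0.58).

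Assembly factors of complexes II to V had 16 of 30 tested genes positive, with a median of 0.03. The 2 of smallest p went in opposite directions. Sdhaf4, an assembly factor of complex II, had 71.8, 45.6 and 53.5 CPM in wild type against 27.1, 38.1 and 13.6 CPM in knockout. Every knockout library was lower (log2 fold change -1.12, SE 0.52, edgeR adjusted p = 0.68), while Sdha and Sdhc had the opposite order. Fmc1, an assembly factor of ATP synthase, stood at 1.06 (SE 0.53) with every knockout library higher. Of the 30 tested assembly factors, 3 (10%) lay higher in every knockout library and 1 (3.33%) lower. Over all tested genes these orders were seen for 7.52% and 6.85%. Among the carriers of phosphate and nucleotides and the outer membrane channels, 4 of 5 tested genes were positive, with a median of 0.09. Slc25a5, an ADP/ATP carrier, stood at 0.29 (SE 0.19). Slc25a3, the phosphate carrier, stood at 0.30 (SE 0.20) with every knockout library higher. Of 11 tested regulators of mitochondrial genes 9 were positive, with a median of 0.21. The mitochondrial DNA helicase gene Twnk stood at -0.78 (SE 0.45) with every knockout library lower, and Tfam, which packages mitochondrial DNA, at 0.67 (SE 0.42). Of 5 tested partners outside the symbol rule, 4 were positive, with a median of 0.30. Cytochrome c (Cycs) and the ATP synthase inhibitor gene Atpif1 stood at 0.30 (SE 0.27) and 0.21 (SE 0.24). The negative one was Ndufa4, a subunit associated with complex IV, at -0.15 (SE 0.24).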

How the data were processed

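RNA-seq was measured in 3 wild-type and 3 HLF KO libraries. The values, as deposited, are raw counts of reads for each RefSeq transcript. Alignment used TopHat and mm9, per the submitters' processing notes. Counter, annotation release, strand use and treatment of shared reads: all not given in the sources used here. Of 30858 transcripts, 30363 were named from a RefSeq gene table (GRCm38.p6) and 179 from GENCODE, 316 kept their accession, and counts were summed per symbol. edgeR 4.0.16 in R 4.3.3 was used with TMM, filterByExpr (at least 10 counts, total of 15) and its robust quasi-likelihood fit to all 6 libraries with genotype as the only term. Adjustment was by Benjamini-Hochberg over 10204 genes. Standard errors come from the F statistic, and 95% intervals use its degrees of freedom. Log2 CPM used a prior count of 2.

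Lengths for CPM per kilobase come from GENCODE M21 transcripts matched by accession. Each library's depth sets its counting precision, and the spread between libraries is the error given. The script was tested on simulated counts. Alternatives were edgeR with RLE factors, DESeq2 1.42.0, limma-voom (limma 3.58.1), other filters, thinning to 8346335 counts, features with 1 transcript, a replicate block, and leaving out each library. The members and lists were chosen with earlier results of these data known. Statistics are given in full for the 3 members of smallest p and the most abundant one in each complex, for members without overlap, and for the 2 genes of smallest p in each comparison list. Other members and genes were added after their values were seen.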

Additional observations from a re-analysis of the deposited data

How the results depend on the processing

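No member passed an adjusted p of 0.05 (0 members) in edgeR under TMM or RLE factors, in DESeq2 or limma-voom, under either other filter, after thinning, with features of 1 transcript, with the replicate block or without any 1 library. Over all genes, calls rose from 1 to 108 in DESeq2, 9 without a filter on low counts and 2 with the replicate block, and leaving out 1 library gave 1 to 3. The 2 members higher at an unadjusted p under 0.05 became 1 with RLE factors, 1 with the stricter filter and 1 (Uqcrfs1) with the replicate block, 3 each with limma-voom, no filter, thinned libraries and 1-transcript features, 2 in DESeq2 (Uqcrb and Uqcrfs1), and 0 to 4 with 1 library left out. Lower members numbered 1 without a filter (Cox8b, with 23 counts in all) and 0 to 1 with 1 library left out (Atp5l, without knockout library 3). Same-numbered libraries did not deviate together (r = -0.01, -0.02 and 0.02), so the numbers were not taken to pair them.

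The median of complex III ranged from 0.0063 (without wild-type library 1) to 0.42 with 1 library left out, and the cause was not tested. The other medians moved by less than the spread between libraries under every alternative run. Over the 37 tested members, 30 of 518 values under the alternatives changed sign, in 12 genes (Cox6b1, Cox7b, Cox7c, Cox5b, Uqcr10, Atp5j2, Atp5md, Uqcr11, Cyc1, Cox7a2, Atp5g2 and Atp5mpl). Of the 13 members with full statistics, mostly chosen for small p, only Cox7c did, at -0.0054 with RLE factors and -0.0054 in DESeq2, and from -0.13 to 0.18 with 1 library left out. Fits without 1 library leave 2 in that genotype, and edgeR pools the spread over both.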
